A study of Mus musculus with 16 samples.

Results

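The inflammatory caspases and the sensors of inflammasomes and of the NOD pathway were represented by 9 genes. These were Casp1, Casp4 and Casp12 (caspases), Nlrp3, Nlrc4 and Aim2 (inflammasome sensors), Pycard (the adaptor ASC) and Nod1 and Nod2 (NOD receptors). They were chosen by name, with earlier results of these data known. All 9 were found among the 19938 genes that a probe set of the array measures, each with a single probe set. Expression was measured as log2 RMA values on 16 Affymetrix Mouse Gene 1.0 ST arrays, which carry short probes along each transcript. RNA came from dividing mouse embryonic fibroblasts, or MEFs, a culture grown from whole embryos, of the mixed strain C57Bl/6 x 129Sv. The 4 groups of 4 arrays were TNFα treated SIMPL-/- MEFs, untreated SIMPL-/- MEFs, TNFα treated littermate MEFs and untreated littermate MEFs, the littermates being labelled WT. SIMPL is the protein encoded by Irak1bp1, which enhances the activity of the NF-κB subunit p65, and the knockout is carried by every cell of the mouse. TNFα was recombinant human protein at 10 ng/ml for 45 min by the labels, while the methods of the study give an hour. Per those methods the fibroblasts of each genotype were derived 4 times, each time from a single embryo, and no source ties a treated array to an untreated array of the same embryo. The spread between arrays is the only error that the p-values measure.

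Inflammasomes are cytosolic complexes in which a sensor recruits caspase-1, usually through the adaptor ASC, and active caspase-1 then matures interleukin-1β and interleukin-18 and cleaves gasdermin D to open pores in the cell membrane. Caspase-11, encoded in mouse by Casp4, binds lipopolysaccharide in the cytosol and cleaves gasdermin D itself, the non-canonical pathway. NOD1 and NOD2 sense fragments of bacterial cell wall and signal through the kinase RIPK2 to NF-κB. These systems are best known from macrophages and other myeloid cells, where NF-κB raises NLRP3 and caspase-11 before the complex can assemble, a step called priming. The comparisons here ask which of these genes TNFα changes in the bulk RNA of MEF cultures and which differ when SIMPL is missing.

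Casp1, Casp4 and Casp12 lie next to each other on chromosome 9 of the mouse genome (RefSeq, GRCm38.p6). Casp1 spans chr9:5298517-5307281, Casp4 chr9:5308849-5336791 and Casp12 chr9:5345442-5373034, together 74.5 kb. Irak1bp1 is on the same chromosome at chr9:82829806-82847688, 77.5 Mb away. The other genes are on chromosomes 11 (Nlrp3), 17 (Nlrc4), 7 (Pycard), 1 (Aim2), 6 (Nod1) and 8 (Nod2). The 250 bases before the annotated transcription start are shown for the 2 genes with the largest TNFα responses, Casp4 (chr9:5308599-5308848, plus strand) and Nlrp3 (chr11:59541319-59541568, plus strand). For contrast they are also shown for Casp1 (chr9:5298267-5298516, plus strand) and Casp12 (chr9:5345226-5345475, plus strand), which flank Casp4. Capitals mark matches to the NF-κB consensus on either strand.
Casp4: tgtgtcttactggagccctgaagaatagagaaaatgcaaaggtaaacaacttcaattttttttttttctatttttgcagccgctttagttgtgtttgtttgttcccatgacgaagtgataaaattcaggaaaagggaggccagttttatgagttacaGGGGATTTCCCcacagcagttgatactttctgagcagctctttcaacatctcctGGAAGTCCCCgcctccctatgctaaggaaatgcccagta
Nlrp3: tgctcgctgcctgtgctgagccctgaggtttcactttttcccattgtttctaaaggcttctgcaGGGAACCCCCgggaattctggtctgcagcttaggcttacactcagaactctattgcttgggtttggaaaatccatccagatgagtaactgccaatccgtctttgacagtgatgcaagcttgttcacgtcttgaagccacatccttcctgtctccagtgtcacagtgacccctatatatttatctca
Casp1: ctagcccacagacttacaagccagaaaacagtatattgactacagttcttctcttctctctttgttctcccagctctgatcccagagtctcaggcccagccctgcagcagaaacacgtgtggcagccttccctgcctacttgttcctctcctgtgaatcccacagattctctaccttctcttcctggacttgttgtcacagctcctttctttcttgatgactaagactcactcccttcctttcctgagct
Casp12: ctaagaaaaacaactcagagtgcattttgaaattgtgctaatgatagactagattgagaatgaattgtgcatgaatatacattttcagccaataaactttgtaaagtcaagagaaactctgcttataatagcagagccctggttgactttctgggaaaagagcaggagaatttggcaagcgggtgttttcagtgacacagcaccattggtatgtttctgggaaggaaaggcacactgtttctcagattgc
The windows were searched on both strands for the NF-κB consensus, for TATAAA and for the interferon response motif GAAANNGAA. All 9 genes have a window in the RefSeq table, 12 windows in all. The NF-κB consensus was found upstream of 2 of the 9 genes, Casp4 and Nlrp3, against 8.23% of the 27025 genes and 7.25% of the 32851 windows of the table. Casp4 held overlapping matches from base -93 to base -83 and a further one on the minus strand from -39 to -30, counted back from the start. A start annotated a little downstream in Casp4 shares these matches. Nlrp3 had a match from -186 to -177 before its upstream start and none before its downstream start (chr11:59542436-59542685). Neither TATAAA (12.4% of windows) nor GAAANNGAA (7.13%) was found in any of the 12 windows. A match of letters does not show that a factor binds there, and the absence of one says only that those letters are not in the window.

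**Figure D1:**
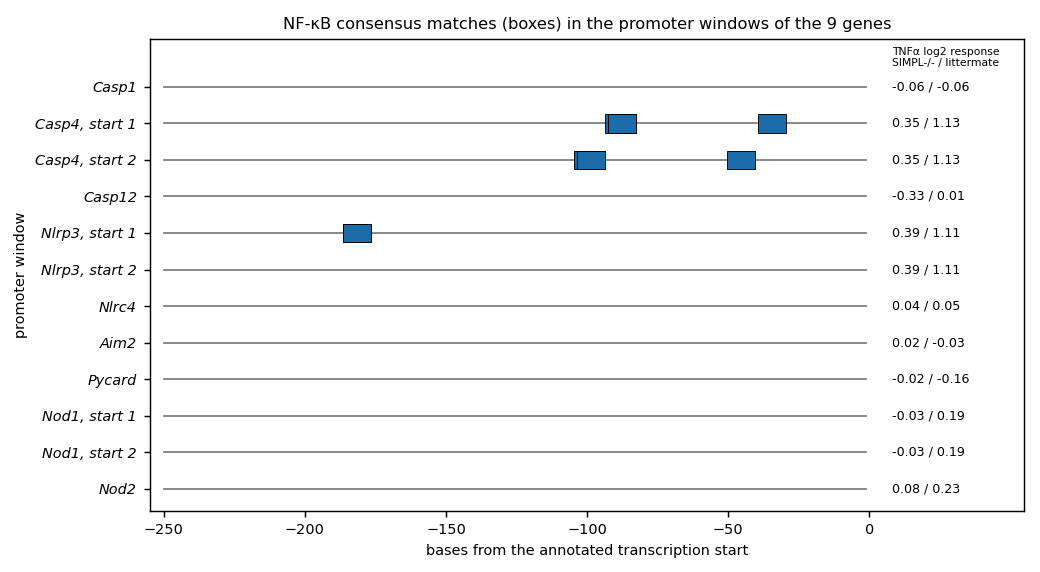
Positions of NF-κB consensus matches (boxes) in the 250 bases before each annotated start of the 9 genes (lines, x axis in bases from the start), with the log2 TNFα response of the gene in SIMPL-/- and in littermate MEFs at the right. Boxes occur on the lines of Casp4 and Nlrp3, the genes with littermate responses of 1.13 and 1.11.

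The knockout was visible on every array. Irak1bp1 stood at 5.26, 5.53, 5.08 and 5.60 in TNFα treated and 5.32, 5.16, 5.62 and 5.35 in untreated SIMPL-/- MEFs, against 7.65, 7.98, 8.03 and 7.98 in treated and 8.19, 8.21, 7.85 and 8.12 in untreated littermate MEFs. The array medians lay between 6.67 and 6.76, and arrays of a group had a Pearson's r across probe sets of at least 0.994. The 2 genotypes also differed in cell type markers, those of fibroblasts among them. All 22 of 22 myeloid markers, among them Csf1r, Adgre1 and Ptprc, were lower in SIMPL-/- MEFs both with TNFα (median log2 difference -2.56) and without it (-2.40). Their mean on an array ranged over 7.47 to 7.60 in treated and 7.46 to 7.61 in untreated SIMPL-/- MEFs, against 9.69 to 10.1 in treated and 9.58 to 9.97 in untreated littermate MEFs. No marker can be called absent, since RMA values have no zero. Csf1r, the receptor for the macrophage growth factor CSF-1, still averaged 8.31 in treated and 8.13 in untreated SIMPL-/- MEFs, against 10.4 in treated and 10.2 in untreated littermate MEFs. Of the 12 fibroblast markers, 7 were lower and 3 higher in SIMPL-/- MEFs in either condition (median log2 difference -0.26 in each). Lum differed by -2.78 with TNFα and -2.87 without, and S100a4 by 1.70 with and 1.69 without. Of the 6 epithelial markers, 3 were higher with TNFα and 4 without it, led by Krt18 (2.13 higher without TNFα). Of the 8 neutrophil and mast cell markers 4 were lower in either condition, and 0 of 6 lymphoid markers were called. Of 6 endothelial markers 2 were higher and 1 lower with TNFα, and 1 was higher without. For all genes the shares were 18.4% lower and 17.8% higher with TNFα, and 17.6% lower and 23.3% higher without. In bulk RNA, fewer cells of a type and less RNA per cell cannot be told apart.

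**Figure D2:**
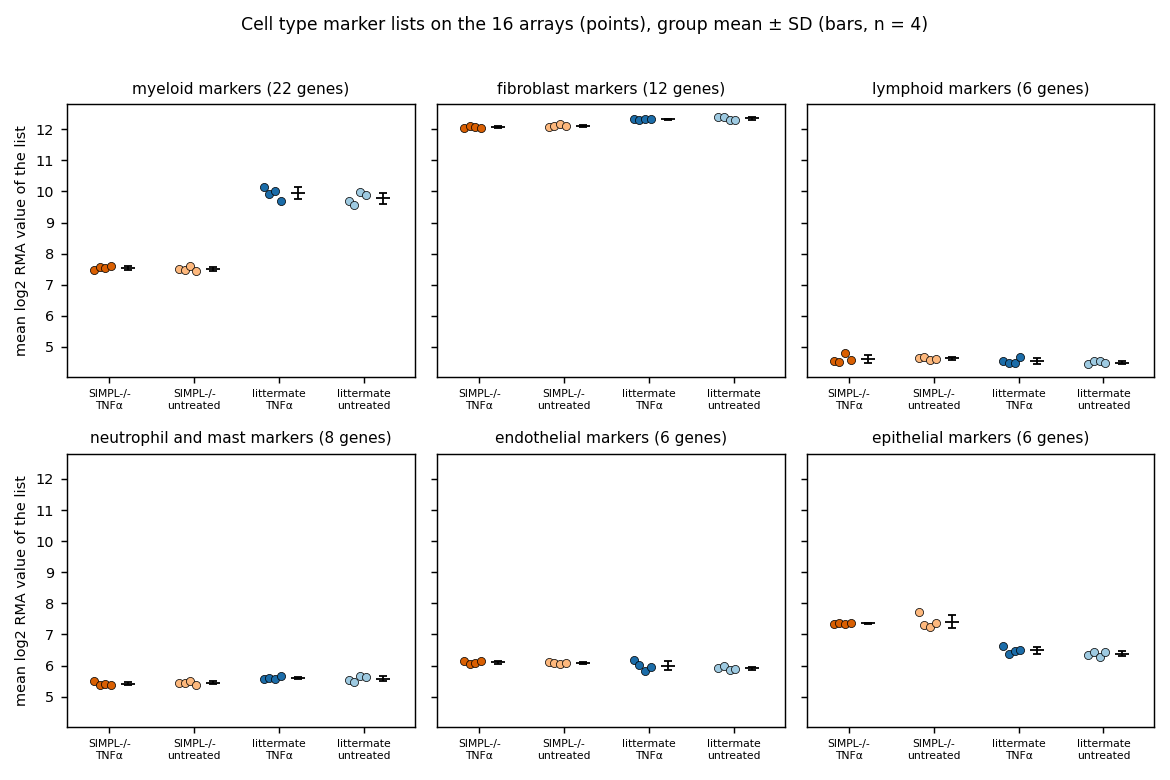
Mean log2 RMA value of each list of cell type markers (y axis) on each array (points), by group on the x axis, with group mean ± SD (bars, n = 4). The myeloid list sits near 7.5 in both SIMPL-/- groups and between 9.58 and 10.1 on the littermate arrays.

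TNFα raised 2 of the 9 genes in both genotypes, Casp4 and Nlrp3, and the rise of both was smaller in SIMPL-/- MEFs. In SIMPL-/- MEFs TNFα raised 2 of 9 (1.73% of all genes rose) and lowered 1 of 9, Casp12 (1.39% of all genes fell), at an adjusted p under 0.05 with limma. In littermate MEFs TNFα raised 2 of 9 (2.7% of all genes rose) and lowered 0 of 9 (2.45% of all genes fell), and at an unadjusted p under 0.05 the response was above 0 for 4 of the 9 (8.3% of all genes) and below 0 for 0 of 9 (8.32% of all genes). The responses differed between the genotypes for 2 of 9 genes, both smaller in SIMPL-/- MEFs (0.441% of all genes had a lower response), and for 0 in the other direction (0.0953% of all genes). At an unadjusted p under 0.05, the signed difference, SIMPL-/- minus littermate, was below 0 for 4 of the 9 (8.26% of all genes) and above 0 for 0 (4.67% of all genes). Casp12, one of these 4, fell in SIMPL-/- MEFs. The median response of the 9 genes was 0.02 in SIMPL-/- and 0.05 in littermate MEFs on the log2 scale, beside -0.02 and 0.01 over all genes. The genotype itself separated more of them. With TNFα, 7 of 9 were lower in SIMPL-/- MEFs (18.4% of all genes were) and 1, Nod1, was higher (17.8% of all genes). Without TNFα, 6 of 9 were lower (17.6% of all genes) and Nod1 was again higher (23.3% of all genes). The median difference of the 9 genes was -0.71 with TNFα and -0.43 without, beside 0.03 and 0.07 over all genes. The myeloid markers moved with the genotype in the same direction as 7 of the 9 genes, and their part in these differences was not tested.

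**Figure D3:**
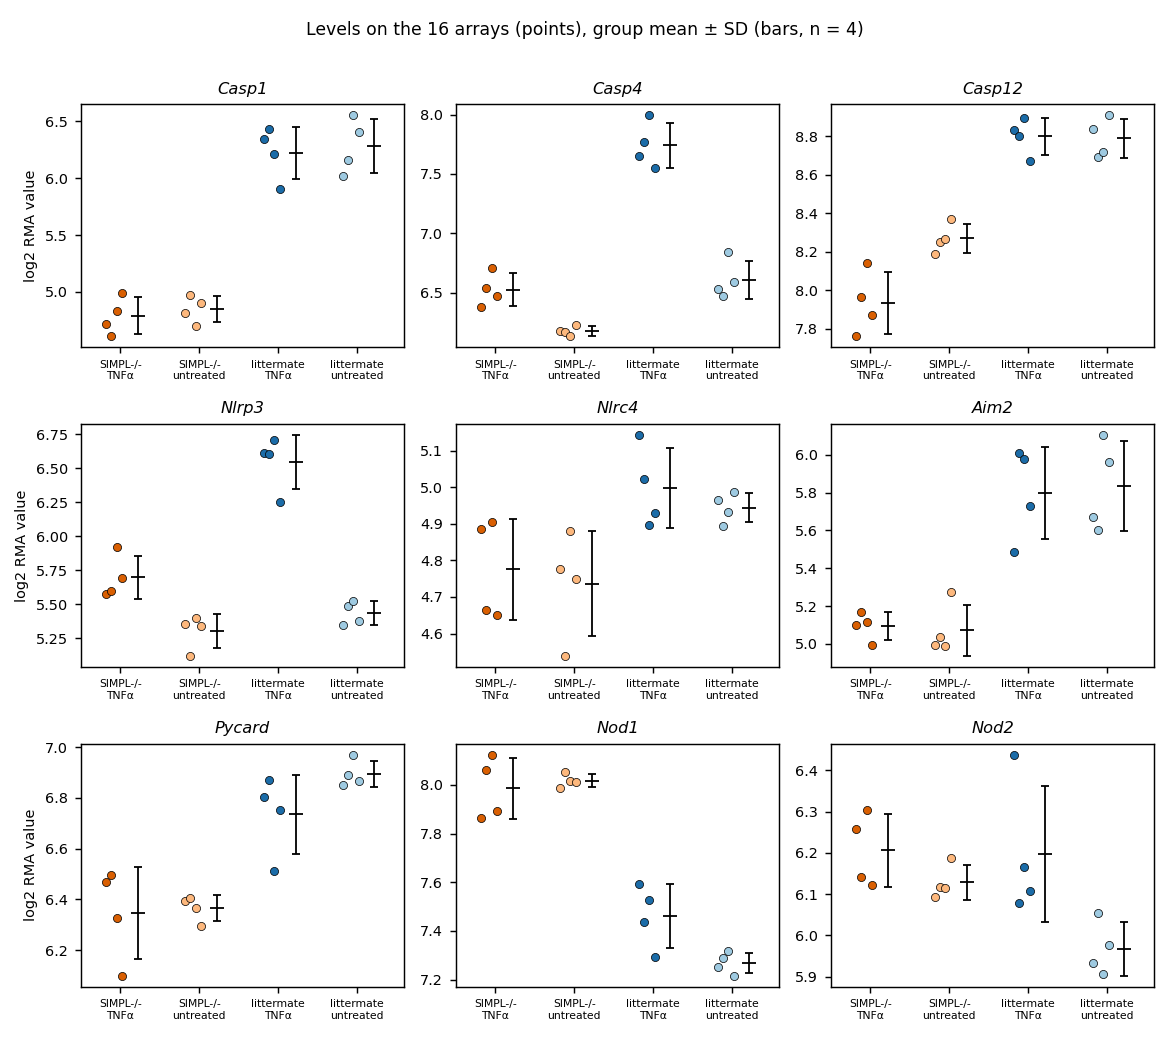
Log2 RMA value of each of the 9 genes (y axis, scaled per gene) on every array (points), by group on the x axis, with group mean ± SD (bars, n = 4). Casp4 and Nlrp3 stand highest in TNFα treated littermate MEFs, Casp1 and Aim2 separate by genotype alone, and Nod1 is higher in SIMPL-/- MEFs.

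Casp4 encodes caspase-11, the lipopolysaccharide receptor of the non-canonical inflammasome. Its log2 values were 6.38, 6.54, 6.71 and 6.47 in TNFα treated and 6.17, 6.17, 6.13 and 6.23 in untreated SIMPL-/- MEFs. In littermate MEFs they were 7.65, 7.77, 7.99 and 7.55 with TNFα and 6.53, 6.47, 6.84 and 6.59 without. Within each genotype every treated array stood above every untreated one, and treated SIMPL-/- arrays reached only into the range of untreated littermate arrays. TNFα raised Casp4 by 0.35 (SE 0.09, 1.27-fold, adjusted p = 0.0477) in SIMPL-/- MEFs and by 1.13 (SE 0.09, 2.19-fold, adjusted p = 8.86e-08) in littermate MEFs. The difference between these responses was -0.79 (95% confidence interval -1.06 to -0.51, adjusted p = 0.00597). Casp4 was lower in SIMPL-/- MEFs by 1.22 with TNFα (2.32-fold, adjusted p = 4.1e-09) and by 0.43 without it (1.35-fold, adjusted p = 0.00116). The rise in SIMPL-/- MEFs was near the threshold. It was no longer called by the methods' t-test (adjusted p = 0.12) or without any one of arrays 1, 4, 5, 6, 9, 10, 11, 12, 14, 15 and 16 (values 0.29 to 0.37, adjusted p 0.0509 to 0.121). Some 129Sv substrains are known to carry an inactive Casp4, and which allele each embryo carried was not tested.

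Nlrp3 encodes the sensor of the canonical inflammasome that responds to potassium efflux and many kinds of cell damage. It stood at 5.58, 5.60, 5.92 and 5.69 in TNFα treated and 5.35, 5.12, 5.40 and 5.34 in untreated SIMPL-/- MEFs. Littermate MEFs had 6.61, 6.60, 6.70 and 6.25 with TNFα and 5.35, 5.49, 5.53 and 5.38 without. Unlike Casp4, untreated arrays of the genotypes overlapped, while no treated SIMPL-/- array reached the lowest treated littermate array. Untreated Nlrp3 means, 5.30 in SIMPL-/- and 5.43 in littermate MEFs, were near those of Irak1bp1 in SIMPL-/- MEFs (5.37 treated, 5.36 untreated). At signals this dim a difference on the array can understate that in RNA. The TNFα response was 0.39 (SE 0.09, 1.31-fold, adjusted p = 0.0251) in SIMPL-/- MEFs and 1.11 (SE 0.09, 2.16-fold, adjusted p = 1.5e-07) in littermate MEFs. These responses differed by -0.71 (95% confidence interval -0.995 to -0.43, adjusted p = 0.0148). The genotypes differed by -0.85 with TNFα (1.80-fold lower in SIMPL-/- MEFs, adjusted p = 6.65e-07) and by -0.13 without it (95% confidence interval -0.33 to 0.07, adjusted p = 0.271). The difference between the responses was -0.62 (adjusted p = 0.0615) after quantile normalization and lost its call with the unmoderated test (adjusted p = 0.0743). The rise in SIMPL-/- MEFs was lost with the methods' t-test (adjusted p = 0.191) and without array 10, 12, 15 or 16 (values 0.32 to 0.41, adjusted p 0.0539 to 0.0844). Of the myeloid markers, 2 rose with TNFα in littermate MEFs, Cd14 (0.79) and Cybb (0.61), and 0 in SIMPL-/- MEFs, and Cd14 also had a smaller response in SIMPL-/- MEFs (difference -0.61). Over the whole list the median difference between the responses was -0.11. Of the 22 markers, 20 had no called TNFα response in littermate MEFs and 22 had none in SIMPL-/- MEFs. This median therefore cannot tell what part myeloid cells had in the Casp4 and Nlrp3 responses, which was not tested.

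**Figure D4:**
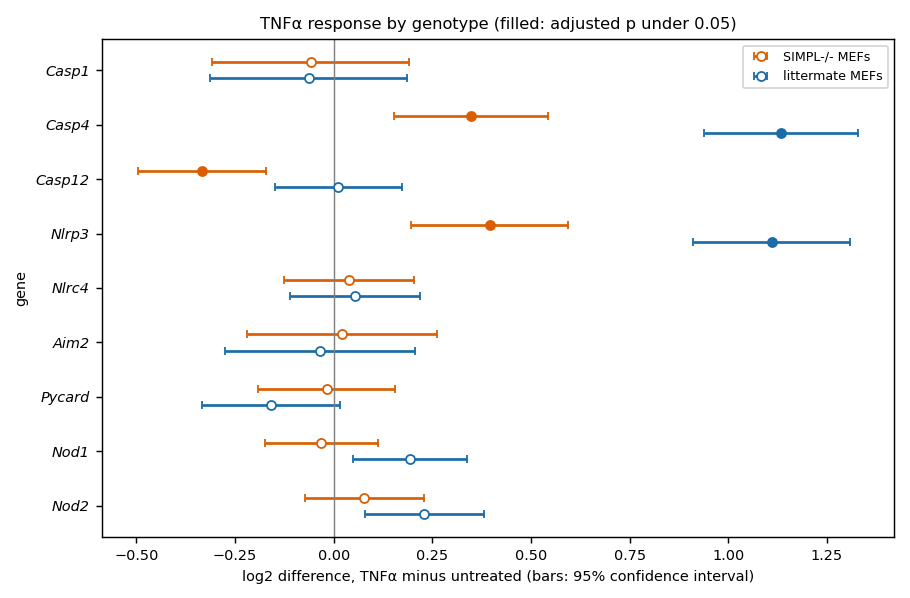
TNFα response of each gene as a log2 difference, treated minus untreated (x axis), in SIMPL-/- and in littermate MEFs (points, with 95% confidence intervals, filled where the adjusted p is under 0.05). The littermate responses of Casp4 (1.13) and Nlrp3 (1.11) lie to the right of all others, and Casp12 in SIMPL-/- MEFs (-0.33) lies to the left.

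Casp1 and Casp12 flank Casp4 on the chromosome but had other patterns. Casp1, the effector protease of the canonical inflammasome, was at 4.72, 4.61, 4.84 and 4.99 in TNFα treated and 4.81, 4.97, 4.70 and 4.90 in untreated SIMPL-/- MEFs. In littermate MEFs it was at 6.35, 6.43, 6.21 and 5.90 with TNFα and 6.02, 6.16, 6.55 and 6.41 without. The genotypes were far apart and the treatments overlapped. Casp1 was lower in SIMPL-/- MEFs by 1.43 with TNFα (95% confidence interval -1.68 to -1.18, 2.70-fold, adjusted p = 1.22e-08) and by 1.44 without it (-1.69 to -1.19, 2.71-fold, adjusted p = 1.31e-08). At its dim signals in SIMPL-/- MEFs, a fold on the array can understate that in RNA. Its TNFα response was -0.06 in SIMPL-/- MEFs (95% confidence interval -0.31 to 0.19) and -0.06 in littermate MEFs (-0.31 to 0.19).

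Casp12, an inflammatory caspase held at the endoplasmic reticulum, stood at 7.76, 7.97, 8.14 and 7.87 in TNFα treated and 8.19, 8.25, 8.26 and 8.37 in untreated SIMPL-/- MEFs. Littermate MEFs had 8.83, 8.80, 8.89 and 8.67 with TNFα and 8.84, 8.69, 8.72 and 8.91 without. The lowest values were thus those of treated SIMPL-/- MEFs, below every untreated SIMPL-/- array, and both lay below all littermate arrays. TNFα lowered Casp12 in SIMPL-/- MEFs, with a response of -0.33 (SE 0.08, 1.26-fold lower, adjusted p = 0.0193), while in littermate MEFs the response was 0.01 (95% confidence interval -0.15 to 0.17). The difference between the responses, -0.34 (95% confidence interval -0.57 to -0.12), did not pass limma's test after adjustment over all genes (adjusted p = 0.188). The fall in SIMPL-/- MEFs lost its call in a fit of the compared groups alone (adjusted p = 0.0514), with the methods' t-test (adjusted p = 0.207) and without array 12, 13 or 16 (values -0.31 to -0.28, adjusted p 0.0583 to 0.0792). Between the genotypes Casp12 differed by -0.86 with TNFα (adjusted p = 3.31e-08) and by -0.52 without it (adjusted p = 2.55e-05). Among the 10 measured genes nearest to the cluster, 5 on each side, 4 were lower and 2 higher in SIMPL-/- MEFs with TNFα. Without it 5 were lower and 2 higher. Beside these stood 18.4% lower and 17.8% higher over all genes with TNFα, and 17.6% lower and 23.3% higher without. The neighbour Mmp13, a collagenase, differed by -1.80 with TNFα and by -1.55 without. The TNFα responses differed between the genotypes for 0 of these 10 neighbours at an adjusted p under 0.05, while with TNFα Gucy1a2 rose in SIMPL-/- MEFs (0.25, adjusted p = 0.0386), and in littermate MEFs Mmp13 rose (0.41, adjusted p = 0.0198) and Msantd4 fell (-0.27, adjusted p = 0.0095).

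Aim2, Nlrc4 and Pycard did not pass the test for a TNFα response in either genotype, with responses between -0.16 and 0.05. Aim2, the sensor of double-stranded DNA in the cytosol, was at 5.10, 5.17, 5.12 and 4.99 in treated and 4.99, 5.03, 4.99 and 5.27 in untreated SIMPL-/- MEFs, against 5.49, 6.01, 5.98 and 5.73 in treated and 5.67, 5.60, 6.10 and 5.96 in untreated littermate MEFs. Every SIMPL-/- array was below every littermate array. The differences were -0.71 with TNFα (SE 0.11, 1.63-fold lower, adjusted p = 6.19e-05) and -0.76 without (SE 0.11, 1.70-fold lower, adjusted p = 3.08e-05). Pycard encodes ASC, which joins sensors such as NLRP3 and AIM2 to caspase-1. It was at 6.47, 6.50, 6.33 and 6.10 in treated and 6.40, 6.41, 6.37 and 6.30 in untreated SIMPL-/- MEFs, and at 6.80, 6.87, 6.51 and 6.75 in treated and 6.85, 6.89, 6.97 and 6.87 in untreated littermate MEFs. Here too no array of one genotype overlapped the other in the same condition, although the lowest treated littermate array came close to the SIMPL-/- arrays. Pycard was lower by 0.39 with TNFα (SE 0.08, adjusted p = 0.001) and by 0.53 without (SE 0.08, adjusted p = 5.04e-05), and the first of these was not called by the methods' t-test (adjusted p = 0.0596).

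Nlrc4 detects bacterial flagellin and secretion system proteins through partner sensors of the NAIP family. Its values were 4.89, 4.66, 4.91 and 4.65 in treated and 4.78, 4.54, 4.88 and 4.75 in untreated SIMPL-/- MEFs, against 5.14, 5.02, 4.90 and 4.93 in treated and 4.96, 4.89, 4.93 and 4.99 in untreated littermate MEFs. The genotypes overlapped with TNFα and nearly touched without it. The differences of -0.22 with TNFα (SE 0.08, adjusted p = 0.0327) and -0.21 without (SE 0.08, adjusted p = 0.0416) were the smallest called between the genotypes among the 9 genes. Centring each array on its median ended both calls (-0.15, adjusted p = 0.103 with TNFα; -0.17, adjusted p = 0.0685 without), as did trended variances (adjusted p 0.0506 and 0.0621) and the methods' t-test (adjusted p 0.12 and 0.0749), and with TNFα a fit of the compared groups alone (adjusted p = 0.0574). The call was also lost with TNFα without array 5, 6, 14 or 16 (-0.21 to -0.17) and untreated without array 1, 2, 3, 4, 9, 10 or 12 (-0.22 to -0.14). Nlrc4 and Aim2 lay under the 25th percentile of all genes by mean level, so their signals were among the dimmest on the array.

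**Figure D5:**
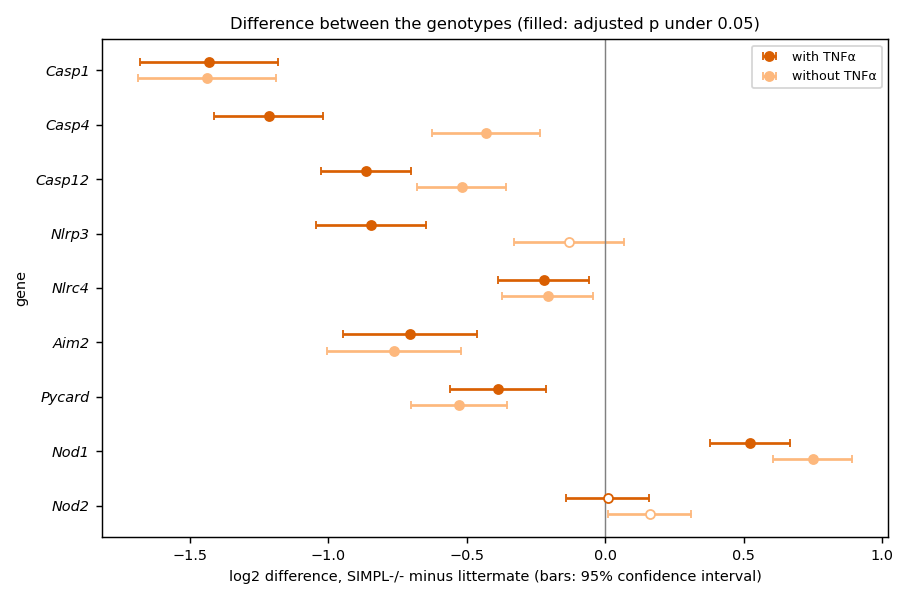
Difference between the genotypes for each gene as a log2 value, SIMPL-/- minus littermate (x axis), with and without TNFα (points, with 95% confidence intervals, filled where the adjusted p is under 0.05). Casp1 is lowest in both conditions, the points of Casp4 and Nlrp3 are farther to the left with TNFα, and Nod1 lies to the right of 0.

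Nod1 and Nod2 encode cytosolic receptors for peptidoglycan fragments. Nod1 was the gene that was higher in SIMPL-/- MEFs, with 7.86, 8.06, 8.12 and 7.89 in treated and 7.99, 8.05, 8.02 and 8.01 in untreated SIMPL-/- MEFs, against 7.59, 7.43, 7.53 and 7.29 in treated and 7.25, 7.29, 7.32 and 7.22 in untreated littermate MEFs. No SIMPL-/- array overlapped a littermate array. The difference was 0.52 with TNFα (SE 0.07, 1.44-fold, adjusted p = 4.78e-06) and 0.75 without (SE 0.07, 1.68-fold, adjusted p = 5.51e-08). The TNFα response was -0.03 in SIMPL-/- MEFs (95% confidence interval -0.18 to 0.11) and 0.19 in littermate MEFs (95% confidence interval 0.05 to 0.34, adjusted p = 0.131). The littermate response passed the threshold only without array 8 (0.25, adjusted p = 0.0428), and the difference between the responses was -0.22 (adjusted p = 0.34).

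Nod2 showed the least difference of the 9 genes between the genotypes after TNFα. It was at 6.26, 6.14, 6.30 and 6.12 in treated and 6.09, 6.12, 6.12 and 6.19 in untreated SIMPL-/- MEFs, and at 6.44, 6.08, 6.16 and 6.11 in treated and 5.93, 6.05, 5.91 and 5.98 in untreated littermate MEFs. All treated littermate arrays stood above all untreated ones, with a response of 0.23 (95% confidence interval 0.08 to 0.38, adjusted p = 0.0763) that passed the threshold only without array 6 (adjusted p = 0.0491). In SIMPL-/- MEFs the response was 0.08 (95% confidence interval -0.07 to 0.23). The genotypes differed by 0.01 with TNFα (95% confidence interval -0.14 to 0.16) and by 0.16 without it (95% confidence interval 0.01 to 0.31, adjusted p = 0.0784). The untreated difference was called with median centring (0.20, adjusted p = 0.0202), array weights (adjusted p = 0.0402), the groups alone (adjusted p = 0.0312), the methods' t-test (adjusted p = 0.0214) and without array 5 (adjusted p = 0.0288).

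By the order of their group means, the 9 genes fell into a few shapes. Casp4 and Nlrp3 were highest in treated littermate MEFs and lowest in untreated SIMPL-/- MEFs. For Casp4, untreated littermate MEFs averaged above treated SIMPL-/- MEFs (6.61 against 6.52), with overlapping arrays. For Nlrp3 they averaged below them (5.43 against 5.70), and untreated arrays of the genotypes overlapped. Casp1, Aim2, Nlrc4 and Pycard were higher in both littermate groups than in both SIMPL-/- groups, and their groups within a genotype did not pass the test. Casp12 had the same order with a further step down in treated SIMPL-/- MEFs, and Nod1 the reverse order of the genotypes. Nod2 was lowest in untreated littermate MEFs, and no tested pair of its groups passed. Over the 16 arrays the log2 values of Casp4 and Nlrp3 had a Pearson's r of 0.95, those of Casp1 and Aim2 0.93, and those of Casp1 and Nod1 -0.91, correlations across arrays that share the group structure. The genes of the array most like Casp1 in this measure were Milr1, Cyth4 and Coro1a (r 0.99 each). Those most like Casp4 were Rasgef1b, Btg1 and Rhbdf2 (0.98 each), and like Nlrp3 Tlr2 (0.97), Gpr84 (0.97) and S1pr3 (0.97). Casp12 was followed by Lrrc17 (0.98), Pnrc2 (0.98) and Arhgef25 (0.97), Aim2 by Tbxas1 (0.96), Pcdhb19 (0.95) and Cd200r1 (0.95), and Pycard by Ap5z1 (0.93), Csf2ra (0.93) and Lsp1 (0.92). Nod1 was nearest to Has2, Cyp1b1 and Kdelr3 (0.97 each), while the nearest genes to Nlrc4, AI467606, Arsg and Iglon5, reached 0.88 and those to Nod2, AU015836, Adgrb1 and Nos3, 0.84 to 0.85.

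Regulators known to act on Casp4 and Nlrp3 transcription were 11 measured genes, factors of the interferon and NF-κB pathways and the myeloid factor Spi1. With TNFα 3 rose (1.73% of all genes) and 2 fell (1.39%) in SIMPL-/- MEFs, and 2 rose (2.7%) and 1 fell (2.45%) in littermate MEFs. Irf1, an interferon regulatory factor that is itself a target of NF-κB, averaged 10.6 ± 0.10 in treated and 8.43 ± 0.12 in untreated SIMPL-/- MEFs, against 11.8 ± 0.05 in treated and 8.51 ± 0.11 in untreated littermate MEFs (SD, n = 4 each). Its response was 2.17 in SIMPL-/- and 3.28 in littermate MEFs, and the difference of -1.10 (adjusted p = 1.01e-05) was the only one called in this list. Rela, the gene of p65, rose by 0.41 in SIMPL-/- and 0.61 in littermate MEFs. Stat2, which carries type I interferon signals, fell by 0.50 in SIMPL-/- and 0.48 in littermate MEFs. None of the 11 was higher in SIMPL-/- MEFs in either condition (17.8% of all genes with TNFα, 23.3% without). With TNFα 8 of the 11 were lower (18.4% of all genes), and without it 7 (17.6%). These included Stat2 (-1.17 with and -1.15 without TNFα) and Spi1 (-1.91 with and -1.80 without), which encodes PU.1 and is also one of the myeloid markers.

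Other inflammasome sensors and adaptors did not pass the test for a TNFα response in either genotype (0 of 15 measured). At an unadjusted p under 0.05, 0 responded in SIMPL-/- MEFs and 1 rose in littermate MEFs (8.3% of all genes). In SIMPL-/- MEFs 5 of the 15 were lower and 1 was higher, both with and without TNFα. The shares of all genes were 18.4% lower and 17.8% higher with TNFα, and 17.6% lower and 23.3% higher without. Naip5, which binds flagellin for NLRC4, differed by -0.65 with and -0.62 without TNFα, Naip2, which binds a rod protein of secretion systems, by -0.54 with and -0.67 without it, and Naip6 by -0.70 with and -0.49 without it. Ifi203, a relative of Aim2, differed by -0.77 with and -0.95 without TNFα. Naip5 and Naip6, and Ifi203 and its relatives, are close copies of one another whose probes may cross-hybridise.

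Among 15 measured regulators of inflammasomes, TNFα raised 1 gene in SIMPL-/- MEFs (1.73% of all genes). In littermate MEFs it raised 3 (2.7% of all genes) and lowered 1 (2.45%). Gbp5, a guanylate-binding protein that promotes NLRP3 assembly, averaged 4.94 ± 0.22 in treated and 4.68 ± 0.10 in untreated SIMPL-/- MEFs, against 6.12 ± 0.18 in treated and 4.73 ± 0.28 in untreated littermate MEFs (SD, n = 4 each). Its responses, 0.26 in SIMPL-/- and 1.39 in littermate MEFs, differed by -1.13 (adjusted p = 0.00331), the one such call in the list. Outside treated littermate MEFs Gbp5 was dim, so a difference on the array can understate that in RNA. Bcl10, an adaptor to NF-κB, rose by 0.44 in SIMPL-/- and 0.87 in littermate MEFs. With TNFα 6 of the 15 were lower in SIMPL-/- MEFs (18.4% of all genes) and 2 higher (17.8%). Without it 4 were lower (17.6% of all genes) and 4 higher (23.3%). Trim30a, an interferon-induced inhibitor of NLRP3, was lower by 1.25 with TNFα and 0.89 without, and Gbp3 by 1.18 with and 0.98 without. Ripk3, the kinase of necroptosis, was higher with TNFα (0.74, adjusted p = 4.15e-08) and without it (1.01, adjusted p = 6.52e-10).

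The substrates and release factors of inflammatory caspases numbered 10 measured genes. TNFα raised 2 in SIMPL-/- MEFs (1.73% of all genes) and 1 in littermate MEFs (2.7%). Il1b, Il18 and Gsdmd were among the 10 and did not pass the test for a TNFα response in either genotype. Ninj1, which ruptures the membrane of dying cells, rose by 0.29 in SIMPL-/- and by 0.50 in littermate MEFs. Il1a, a cytokine released from damaged cells, rose by 0.43 in SIMPL-/- MEFs, although its arrays overlapped. Its signal was dim in every group, with means of 3.88 to 4.52. Between the genotypes 3 were higher (17.8% of all genes) and 2 lower (18.4%) in SIMPL-/- MEFs with TNFα. Without it 4 were higher (23.3% of all genes) and 3 lower (17.6%). Il33, an alarmin of stromal cells, was lower by 0.84 with and 0.64 without TNFα, and Panx1, a membrane channel, was higher by 0.36 with and 0.44 without. The responses of 0 of the 10 differed between the genotypes. At an unadjusted p under 0.05, the response was lower in SIMPL-/- MEFs for 3 (8.26% of all genes) and higher for 1 (4.67%).

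Downstream of the NOD receptors, 17 genes of the signalling list were measured. TNFα raised 2 (1.73% of all genes) and lowered 1 (1.39%) in SIMPL-/- MEFs and raised 4 in littermate MEFs (2.7%). Birc3, a ubiquitin ligase that acts on RIPK2, rose by 1.31 in SIMPL-/- (adjusted p = 6.86e-11) and by 1.69 in littermate MEFs (adjusted p = 5.71e-13). Responses that differed between the genotypes were found for 0 of the 17. At an unadjusted p under 0.05, the response was lower in SIMPL-/- MEFs for 3 (8.26% of all genes) and higher for 1 (4.67%). With TNFα 9 were lower (18.4% of all genes) and 2 higher (17.8%) in SIMPL-/- MEFs. Without it 7 were lower (17.6% of all genes) and 1 higher (23.3%). Slc15a3, an endosomal carrier that delivers peptidoglycan fragments to the receptors, averaged 7.49 ± 0.06 in treated and 7.31 ± 0.13 in untreated SIMPL-/- MEFs, against 9.70 ± 0.18 in treated and 9.14 ± 0.14 in untreated littermate MEFs (SD, n = 4 each), differences of -2.21 with and -1.82 without TNFα. Erbin, which binds NOD2, differed by -0.47 with and -0.45 without. The myeloid markers were lower in the same arrays as the lowered genes of all these lists, and their part in the lists was not tested.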

How the data were processed

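RNA of the 16 arrays was labelled with biotin and hybridised by the submitters. The authors deposited one table of log2 values, made with RMA in Partek per the labels, without versions, while the methods of the study name another Affymetrix program. Precision is limited by how many arrays there are, 4 a group. Groups came from the sample titles. Of 28853 probe sets, 21789 have 1 gene symbol in the platform annotation, 1621 have several and 5443 are not listed with one, and only the first kind was used. The brightest probe set was kept for 999 genes with more than one.

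All 16 arrays entered one limma fit (limma 3.58.1, R 4.3.3) in which each of the 4 groups had its own mean (12 residual and 6.19 prior degrees of freedom), with 5 contrasts, two-sided tests and Benjamini-Hochberg adjustment over 19938 genes. Confidence intervals are at 95% and unadjusted. The fit was checked on simulated data with independent noise on every array, which does not cover arrays that share an embryo. The members, the 7 pathway lists and the 6 marker lists were chosen with earlier results of these data known. Genes named from a pathway list are among its 3 largest called changes in a contrast, and Naip2 and Naip6 were named in both conditions for completeness. The genes named from the marker lists and the neighbours Mmp13, Msantd4 and Gucy1a2 were chosen after their values were seen. Alternatives were median centring, quantile normalization, filters at the 25th and 50th percentile of level, the mean of probe sets, trended and robust variances, array weights, the compared groups alone, the methods' t-test and leaving out each array. That t-test is unpaired and two-tailed, and for the difference between the responses an unmoderated test over all groups. Sequences, positions and neighbours are from RefSeq tables of GRCm38.p6, with 250 bases before each start searched. No protein sequences were used here.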

Additional observations from a re-analysis of the deposited data

Results flagged for a closer look

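Among 36 checks of 9 genes in 4 groups, 1 array stood apart from the rest of its group. Aim2 was at 5.27 on array 12 of the untreated SIMPL-/- MEFs, against 4.99, 5.03 and 4.99 on the other arrays, a Dixon ratio of 0.845, above the 95% critical value for 4 arrays. Chance alone gives about 1.8 such arrays in 36 checks. Without array 12, Aim2 was called lower in untreated SIMPL-/- MEFs as with it.

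The TNFα response differed between the genotypes for Casp4 by -0.79 and for Nlrp3 by -0.71 on the log2 scale, SIMPL-/- minus littermate, by the interaction contrast. Cd14, a marker of myeloid cells, had a difference of -0.61 in the same contrast, and what part such cells have in the responses was not tested.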

How the results depend on the processing

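Of 45 values tested (9 genes in 5 contrasts), 22 were called, 15 of which kept their call under every alternative that could be fitted, and 20 of the 23 others stayed uncalled. A called value never changed sign (0 reversed). With genes under the 50th percentile left out, 7 of the 9 genes were not fitted and 0 remained higher with TNFα in either genotype, 1 lower in SIMPL-/- MEFs with and 1 without TNFα, and 0 with a lower response. The count raised by TNFα in SIMPL-/- MEFs was 0 with the methods' t-test and 0 to 2 when leaving out one array, and the count lowered was 0 with the t-test and with the compared groups alone and 0 to 1 when leaving out one array. The count higher in untreated SIMPL-/- MEFs was 2 with median centring, array weights, the compared groups alone and the t-test, and 1 to 2 when leaving out one array. The count with a smaller response in SIMPL-/- MEFs was 1 with quantile normalization and 1 with the unmoderated test. The cause was not tested, except that the filter removes the genes themselves.

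No paired analysis was possible because the array numbers in the titles are unique and no source pairs treated with untreated arrays by embryo. Each gene of the 9 has a single probe set, so the mean of probe sets gave the same levels. RMA gives no call of presence. At the dim signals of Nlrc4, Aim2, Casp1 in SIMPL-/- MEFs and Nlrp3 outside treated littermate MEFs, a difference on the array can understate that in RNA.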

Other observations

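Apoptotic caspases and their partners, 8 measured genes, included genes on both sides of the genotype comparison. With TNFα 2 of 8 were lower (18.4% of all genes) and 1 higher (17.8%) in SIMPL-/- MEFs. Without it 1 was lower (17.6% of all genes) and 4 higher (23.3%). Casp9, the initiator of the mitochondrial pathway, was lower by 0.32 with TNFα and by 0.28 without. Cflar, which encodes the caspase-8 inhibitor FLIP and is an NF-κB target, was raised by TNFα in both genotypes, by 0.37 in SIMPL-/- (adjusted p = 0.0284) and by 0.44 in littermate MEFs (adjusted p = 0.00571). It was higher in SIMPL-/- MEFs by 0.26 with TNFα and by 0.33 without. Fadd, the adaptor of death receptors, rose with TNFα in littermate MEFs (0.21, adjusted p = 0.0451) and was lower in SIMPL-/- MEFs with TNFα (-0.38). Casp2 fell with TNFα in SIMPL-/- MEFs (-0.23, adjusted p = 0.0423). The responses of 0 of the 8 differed between the genotypes at an adjusted p under 0.05. At an unadjusted p under 0.05, the response was lower in SIMPL-/- MEFs for 2 (8.26% of all genes) and higher for 0 (4.67%).

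Of 4 other measured NLR receptors, 0 were called with TNFα in SIMPL-/- MEFs (0 at an unadjusted p under 0.05). In littermate MEFs 1, Nlrc3, rose (0.32, adjusted p = 0.0027), beside 2.7% of all genes. Nlrc3 was higher in untreated SIMPL-/- MEFs (0.21), and Nlrx1, a receptor at mitochondria, was lower with TNFα (-0.24).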
